A study of Mus musculus with 7 samples.

Results

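Immunoglobulin light chain variable segments are the gene pieces that encode most of the antigen-binding domain of the antibody light chain. The segments described here are the 112 genes with a symbol beginning Igkv (kappa, 109 genes on chromosome 6) or Iglv (lambda, 3 genes on chromosome 16) that had at least 20 counts summed over 7 spleen libraries. They were drawn from 163 annotated segments, 160 kappa and 3 lambda, in a table of 55414 genes. Of the 112, 101 were annotated as functional variable genes and 11 as pseudogenes. Of the 51 below the threshold, 28 had no count and 49 were pseudogenes. The rows just outside the threshold were Igkv1-131 with 10 counts and Igkv12-47 and Igkv4-75 with 18 each, and those just inside were Igkv14-126-1 with 29, Igkv12-40 with 30 and Igkv11-106 with 31.

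The series measured polyadenylated RNA of whole mouse spleen in 3 WT libraries, with the genotype given as C57BL/6N, and 4 Fpr2KO libraries, from mice that lack the formyl peptide receptor gene Fpr2. No treatment was named, and the sources used here do not give the strain background of the Fpr2KO mice or the sex and age of the animals. Replicates carry numbers, but nothing ties each to its own animal, and p-values therefore reflect the spread among these libraries, which may be technical. The question is whether the level of light chain segment RNA, and the usage of single segments, differed between spleens with and without Fpr2.

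A light chain is made when a developing B cell joins 1 variable segment to 1 joining segment, and all descendants of that cell keep the joined segment. Plasma cells, the antibody-secreting descendants of B cells, hold far more light chain RNA per cell than resting B cells. In mice the kappa locus supplies most light chains, and the lambda locus has few variable segments. A kappa segment that points the same way as the joining segments is joined by deletion of the DNA between them, and one that points the opposite way by inversion.

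The sequences below come from GENCODE M21 transcripts (GRCm38) and show the 3′ end of the variable exon of the segments on which the results turn, where the germline contribution to the third complementarity-determining region (CDR3, the loop that differs most between antibodies) begins. Each is the last 90 bases in the sense direction, and the capitals run from the conserved cysteine codon to the end of the exon. The cysteine codon was taken as a TGC or TGT codon preceded by a tyrosine codon and a codon for tyrosine, phenylalanine, isoleucine or asparagine, and was found in 98 of the 101 functional members. The capitals had a median length of 26 bases over these.
Igkv3-4: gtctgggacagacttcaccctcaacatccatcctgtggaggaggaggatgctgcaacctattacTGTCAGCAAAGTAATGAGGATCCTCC
Igkv3-5: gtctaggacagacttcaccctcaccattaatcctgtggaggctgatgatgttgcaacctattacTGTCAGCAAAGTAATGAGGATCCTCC
Igkv3-2: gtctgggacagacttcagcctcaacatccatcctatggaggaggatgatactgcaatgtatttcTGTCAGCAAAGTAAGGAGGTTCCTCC
Igkv5-39: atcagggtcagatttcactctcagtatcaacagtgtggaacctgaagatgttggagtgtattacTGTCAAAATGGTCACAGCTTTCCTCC
Igkv17-127: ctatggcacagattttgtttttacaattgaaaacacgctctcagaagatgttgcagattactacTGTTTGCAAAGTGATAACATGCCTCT
Igkv2-109: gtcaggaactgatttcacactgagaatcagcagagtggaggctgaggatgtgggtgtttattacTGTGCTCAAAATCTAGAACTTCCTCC
Igkv4-58: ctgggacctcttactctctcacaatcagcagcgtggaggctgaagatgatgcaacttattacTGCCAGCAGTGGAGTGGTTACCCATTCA
Igkv8-21: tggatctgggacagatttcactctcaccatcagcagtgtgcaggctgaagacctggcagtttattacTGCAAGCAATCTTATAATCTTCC
Igkv10-94: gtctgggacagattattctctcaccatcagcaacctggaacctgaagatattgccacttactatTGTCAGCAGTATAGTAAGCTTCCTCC
Igkv3-4 (chr6:70672068-70672377, plus strand) and Igkv3-5 (chr6:70663586-70663895, plus strand) had the same 26 germline bases from the cysteine onwards, while Igkv3-2 (chr6:70698758-70699067, plus strand) had others. Among the 98 functional members there were 87 distinct sequences of this stretch, of which 78 belonged to 1 segment each, and 40 segments ended in CCTCC. Igkv5-39 lies at chr6:69900424-69900721 on the minus strand, Igkv17-127 at chr6:67861362-67861659 on the plus strand and Igkv2-109 at chr6:68302846-68303158 on the plus strand. Igkv4-58 lies at chr6:69500254-69500562, Igkv8-21 at chr6:70314895-70315207 and Igkv10-94 at chr6:68704508-68704805, all on the minus strand. These coordinates are those of the variable exon, the second of 2 exons, after the exon that encodes most of the leader peptide.

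Closely related segments bear on how far the counts of one can be told from those of another. The variable exons of Igkv1-117 (chr6:68121515-68121827, plus strand) and Igkv1-110 (chr6:68270955-68271267, plus strand) differed at 10 of 313 bases (96.8% identical), and those of Iglv1 (chr16:19085017-19085321, minus strand) and Iglv2 (chr16:19260401-19260705, minus strand) at 9 of 305 bases (97.0% identical). The last 300 bases of both pairs are shown because results below set one member of a pair against the other, and the capitals mark the 10 bases that differ in the kappa pair and the 8 in the lambda pair.
Igkv1-117: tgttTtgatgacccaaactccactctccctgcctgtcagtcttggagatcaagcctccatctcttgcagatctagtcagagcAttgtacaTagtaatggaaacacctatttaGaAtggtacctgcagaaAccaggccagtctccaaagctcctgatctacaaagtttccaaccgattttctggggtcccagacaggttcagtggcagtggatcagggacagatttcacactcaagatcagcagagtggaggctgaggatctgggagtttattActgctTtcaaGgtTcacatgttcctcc
Igkv1-110: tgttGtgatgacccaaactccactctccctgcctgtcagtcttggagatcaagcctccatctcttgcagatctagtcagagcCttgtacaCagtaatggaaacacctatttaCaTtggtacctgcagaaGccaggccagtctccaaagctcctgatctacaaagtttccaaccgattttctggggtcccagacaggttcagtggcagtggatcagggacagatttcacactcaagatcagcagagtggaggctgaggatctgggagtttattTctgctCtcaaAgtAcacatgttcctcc
Iglv1: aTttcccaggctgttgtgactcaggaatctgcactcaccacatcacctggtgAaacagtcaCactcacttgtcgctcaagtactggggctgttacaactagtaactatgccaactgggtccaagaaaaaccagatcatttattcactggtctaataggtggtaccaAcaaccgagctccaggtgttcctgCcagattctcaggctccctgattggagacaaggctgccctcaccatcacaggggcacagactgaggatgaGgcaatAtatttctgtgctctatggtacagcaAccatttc
Iglv2: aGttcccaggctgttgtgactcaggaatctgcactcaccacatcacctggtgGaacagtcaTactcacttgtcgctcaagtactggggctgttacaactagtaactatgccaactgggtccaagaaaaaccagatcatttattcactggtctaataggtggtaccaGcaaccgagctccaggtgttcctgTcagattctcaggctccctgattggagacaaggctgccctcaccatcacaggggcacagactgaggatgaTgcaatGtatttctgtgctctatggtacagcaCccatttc
Over whole transcripts, 54 of the 112 segments had a nearest relative at least 95% identical, 7 had one at least 98% identical, and none was identical to another. Those 54 segments held 54.0% of the mean usage. How the authors' counting treated reads that fit more than 1 segment, and reads changed by somatic hypermutation, is not given in the sources used here, so values of close relatives are uncertain to that extent.

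The libraries held 14968605 to 18692809 counts. Fpr2 itself had 537, 479 and 477 counts in the WT libraries and 0 in each Fpr2KO library, where 3 counts correspond to 0.156 to 0.178 CPM (the unit of level used below, counts relative to library size after edgeR's TMM scaling). Summed CPM of 7 B cell markers ran from 3553 to 3720 in WT and from 3318 to 3782 in Fpr2KO, so defining markers of B cells were present in every library. Pancreatic acinar markers (7 genes, an organ that lies against the spleen) summed to 559 and 333 CPM in Fpr2KO replicates 1 and 2 and to 22.8 to 46.9 CPM in the other 5 libraries. Erythroid markers (6 genes) summed to 14771 to 90237 CPM in WT and 9952 to 49492 CPM in Fpr2KO. The part of these differences in the results below was not tested. Fits without Fpr2KO replicates 1 and 2 are given for the fitted changes they moved most.

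Light chain segments together were highest in 1 WT library and did not separate the genotypes. The 112 segments summed to 5559, 5853 and 13205 CPM in WT replicates 1 to 3 and to 3821, 7631, 6160 and 4993 CPM in Fpr2KO replicates 1 to 4. WT replicate 3 was the highest and Fpr2KO replicate 1 the lowest, and the other 5 libraries of both groups overlapped between them. The group means were 8206 ± 4332 CPM (SD, n = 3) and 5652 ± 1629 CPM (SD, n = 4), a log2 ratio of -0.54 that came to -0.01 without WT replicate 3. In bulk spleen RNA, fewer cells of a type and less RNA per cell cannot be told apart.

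The same library stood out in plasma cell genes. Jchain, which encodes the chain that links IgM and IgA into polymers and is made in plasma cells, was at 1975, 2004 and 4663 CPM in WT and at 1622, 3190, 2655 and 1846 CPM in Fpr2KO. The 13 plasma cell markers summed to 3264, 3239 and 6791 CPM in WT and to 2632, 4707, 3901 and 3075 CPM in Fpr2KO. WT replicate 3 was highest in both and Fpr2KO replicate 2 second, as for the segments, while the B cell markers of those libraries lay within the range of the rest. The part of plasma cell number in the segment level was not tested.

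**Figure D1:**
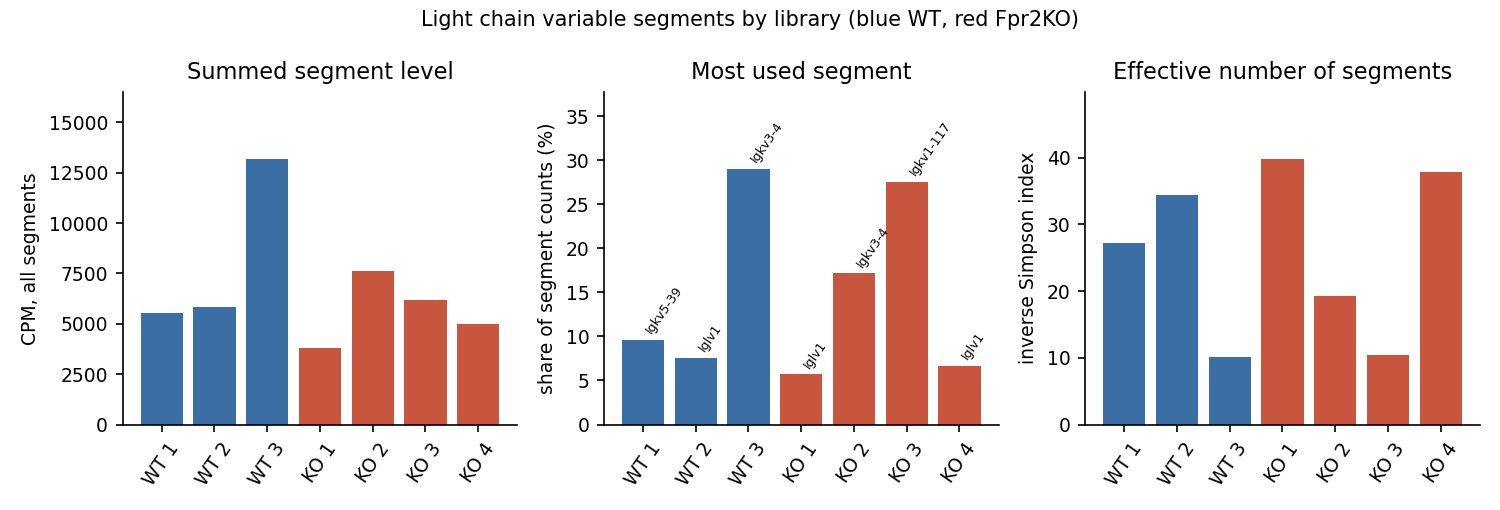
Bars give, for each library, the summed level of the 112 segments in CPM, the share of segment counts taken by its most used segment (named above the bar), and the effective number of segments (inverse Simpson index). WT replicate 3 and Fpr2KO replicate 3 have the fewest effective segments, 10.2 and 10.4, and one segment above 25% of counts.

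Usage, the share of a library's summed segment counts that falls on 1 segment, was spread over many segments in every library. Between 110 and 112 of the 112 segments had at least 1 count in each library, and 74 to 80 reached 0.1% of usage. Mean usage over the 7 libraries was 1% or more for 28 segments and under 0.1% for 34. The 12 most used kappa segments and the 3 lambda segments together held 54.3% of mean usage. Pseudogenes held 0.0517% to 0.266% of the counts of a library. The 95% Wilson interval of a usage value was at most 0.272 percentage points to either side, and such intervals, like floors, cover counting error only.

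Per base of exon, the leading segments were, in order, Igkv3-4, Igkv1-117, Iglv1, Igkv5-39, Igkv10-96, Igkv1-110, Igkv6-15, Igkv1-135, Igkv9-120 and Igkv6-23. The mean share after division by exon length was 8.63% for Igkv3-4, 8.06% for Igkv1-117, 6.16% for Iglv1, 5.41% for Igkv5-39 and 3.73% for Igkv10-96. The order of the first 4 differed from library to library, so they are not separated beyond the spread. Further down, Igkv1-110 (3.20%), Igkv6-15 (2.70%), Igkv1-135 (2.70%), Igkv9-120 (2.54%) and Igkv6-23 (2.28%) differed from each other by less than their own ranges over the libraries.

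The top of the usage order was set by single libraries. Igkv3-4 held 2.62%, 4.74% and 29.1% of segment counts in WT and 1.33%, 17.2%, 0.669% and 3.14% in Fpr2KO. Igkv3-4 was thus high in 1 library of each genotype, and the groups overlapped. Igkv1-117 held 8.41%, 6.82% and 3.91% in WT and 5.03%, 5.01%, 27.6% and 4.02% in Fpr2KO. Only Fpr2KO replicate 3 was high for Igkv1-117, and its relative Igkv1-110, 96.8% identical over the variable exon, held 3.06% there, against 2.48% to 4.28% in the other libraries.

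Some other segments of the Igkv3 family were also high in a library where Igkv3-4 was high, but not always the same ones in both libraries. In WT replicate 3, Igkv3-5 held 2.64% and Igkv3-10 1.33%, and both were higher there than in any other library. In Fpr2KO replicate 2, Igkv3-2 held 4.51%, against 0.735% to 1.36% elsewhere, and Igkv3-10 held 0.773%, against 0.402% to 0.433% in the other Fpr2KO libraries, while Igkv3-5 was at its lowest, 0.433%. Igkv3-2, named after its values were seen, is 91.3% identical to Igkv3-4 over the variable exon, and Igkv3-5 is 91.0% identical to it. The 10 members of the family together held 5.56%, 9.08% and 35.4% in WT and 5.38%, 23.5%, 3.68% and 6.73% in Fpr2KO. Most of the 2 highest sums was Igkv3-4 itself, at 29.1% in WT replicate 3 and 17.2% in Fpr2KO replicate 2.

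Igkv5-39 varied widely within both groups, with 9.65%, 1.47% and 2.96% in WT and 1.74%, 7.77%, 5.17% and 6.50% in Fpr2KO. By contrast, Igkv1-110 varied little, with 4.10%, 3.46% and 3.24% in WT and 4.28%, 2.48%, 3.06% and 3.45% in Fpr2KO. Igkv10-96 lay between them, with 2.75%, 5.34% and 2.92% in WT and 4.03%, 2.03%, 3.51% and 4.57% in Fpr2KO. For all of these, the values of WT and Fpr2KO libraries overlapped.

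**Figure D2:**
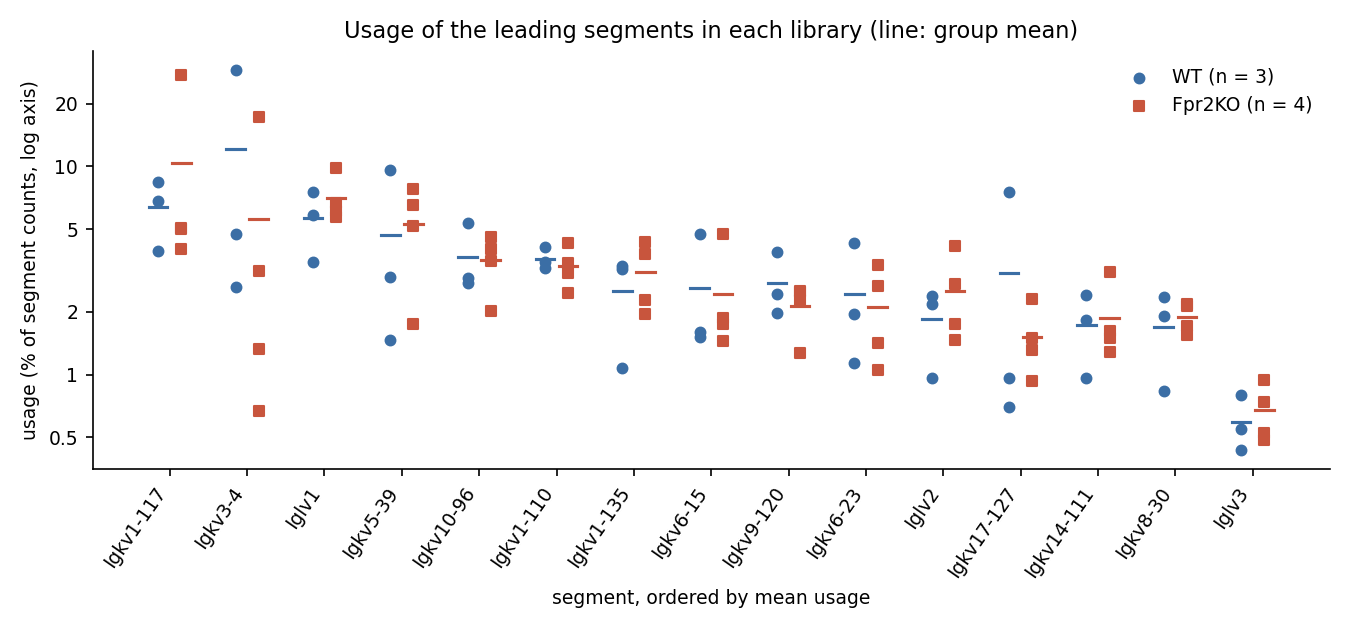
Each point is the usage of 1 segment in 1 library, as a percentage of segment counts on a log axis, with WT as circles, Fpr2KO as squares and a line at each group mean. Igkv3-4 reaches 29.1% in a WT library and 17.2% in an Fpr2KO library, Igkv1-117 reaches 27.6% in an Fpr2KO library, and the groups overlap for every segment plotted.

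Several segments were high in 1 library and lower in the rest. Among the 70 segments with a mean usage of at least 0.2%, the ratio of the highest to the median library had a median of 1.91 and was over 3 for 14. Counting each library against the median of the other 6, 17 pairs of segment and library, over 16 segments, exceeded 3 times that median. WT replicates 1 to 3 had 2, 1 and 4 of these, and Fpr2KO replicates 1 to 4 had 2, 5, 3 and 0. Fpr2KO replicate 4 was the single library with none.

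In WT replicate 1, Igkv17-127 held 7.51%, against 0.698% to 2.31% in the other libraries, and Igkv4-58 held 1.53%, against 0.127% to 0.586%. In Fpr2KO replicate 1, Igkv8-21 held 3.77% and Igkv10-94 held 3.10%, against at most 0.935% and 0.786% in the other libraries. Fpr2KO replicate 3 was high for Igkv12-89 at 1.18% and Igkv1-133 at 0.810%, and Fpr2KO replicate 2 for Igkv5-45 at 0.779%. These segments come from different families and from all along the kappa locus, and no library shared its set with another except for Igkv3-4.

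**Figure D3:**
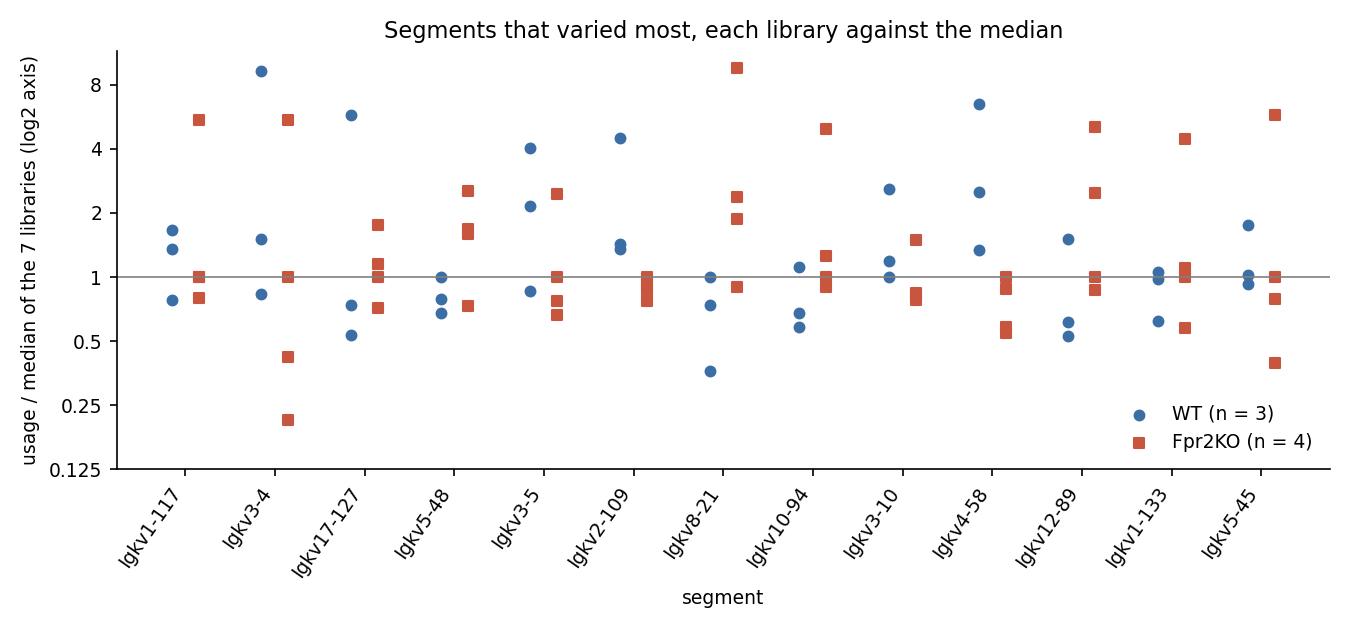
Usage of the segments with the largest spread or fitted change is drawn as a ratio to the median of the 7 libraries, on a log2 axis, with WT as circles and Fpr2KO as squares. Most of these segments have 1 library far above the line at 1, as Igkv8-21 at 9.56 times the median, and the high library is WT for some and Fpr2KO for others.

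The number of segments in effective use followed these high libraries. The inverse Simpson index, the number of equally used segments that would give the same concentration, was 27.2, 34.4 and 10.2 in WT and 39.9, 19.2, 10.4 and 37.8 in Fpr2KO. The means were 23.9 ± 12.4 (SD, n = 3) and 26.8 ± 14.4 (SD, n = 4), and the groups overlapped. With Igkv3-4 and Igkv1-117 left out, a choice made after their values were seen, the index was 27.3, 35.3 and 36.8 in WT and 39.2, 30.4, 25.6 and 36.2 in Fpr2KO. WT replicate 3, among the most concentrated libraries before, was then the most even of the WT libraries. The segments needed for 50% of the counts numbered 11, 13 and 7 in WT and 14, 9, 6 and 14 in Fpr2KO.

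Segment levels varied between libraries far more than those of other genes. The SD of log2 CPM within groups had a median of 0.680 over the 100 segments that passed edgeR's low count filter and of 0.192 over 15989 other genes. Among genes of the same level the medians were 0.693 for 80 segments and 0.172 for 11623 others. Dividing by the segment sum did not narrow it. For the 74 segments with at least 1000 counts the median SD was 0.642 for log2 CPM and 0.704 for log2 usage. The likeness of libraries within a genotype overlapped that between genotypes, as a description over those 74 segments: Pearson's r of log2 usage was 0.684 to 0.796 within WT, 0.660 to 0.808 within Fpr2KO and 0.626 to 0.842 between the groups.

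No segment passed the test between genotypes. Of the 100 segments tested, 0 passed edgeR's quasi-likelihood test at an adjusted p under 0.05, against 6 of 16089 genes, 0.0373%, all lower in Fpr2KO. At an unadjusted p under 0.05, 15 segments were lower and none higher, where 3.07% of all genes were lower, 1.91% higher and 4.98% either. DESeq2 called 3 segments, all lower, where it called 0.295% of genes lower and 0.356% in either direction. The fitted change was below 0 for 72 segments and above 0 for 28, with a median of -0.39 against -0.005 over all genes. Without WT replicate 3 the median was -0.03, with 55 of 102 below 0, against 50.7% of all genes. In that fit 10 segments were lower and 2 higher at an unadjusted p under 0.05, against 666 and 380 of 16495 genes. Scaling counts to the segment sum shifts the median of all genes to 0.41. Under that scaling 45 of 100 segments were below 0, against 6.51% of all genes, and the segments' median was 0.10. There, 7 segments were lower and 11 higher at an unadjusted p under 0.05, against 50 and 205 of 16089 genes.

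Segments spread more widely around 0 than other genes did. The standard error of the fitted log2 change had a median of 0.49 over the segments, against 0.15 over other genes. Of the 100 segments, 17 had a change below -1 and 4 one above 1, against 155 and 58 of 15989 other genes. On the CPM scale, 9 of the 100 tested segments had all Fpr2KO values below all WT values, where 3.18% of all genes did, and none had them all above, where 2.73% of genes did.

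Igkv4-58 had the smallest p of the segments. It was at 84.9, 34.3 and 41.4 CPM in WT and at 7.83, 9.71, 8.35 and 11.7 CPM in Fpr2KO. Every Fpr2KO library lay below every WT library, and Fpr2KO values ran from 7.83 to 11.7 CPM. The log2 change was -2.51 (SE 0.34), with an edgeR adjusted p of 0.203. DESeq2 gave -2.50 with an adjusted p of 3.84e-15, and edgeR without WT replicate 1, the highest library, gave -2.01 with an adjusted p of 0.00635, where 1 segment and 0.0607% of genes were called. Its nearest relative, Igkv4-51, with the same bases from the cysteine onwards, was at 1.54, 1.77 and 1.91 CPM in WT and at 1.41, 1.77, 1.60 and 2.24 CPM in Fpr2KO. Igkv4-51 was named after its values were seen.

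Among segments with a mean usage of at least 0.2%, the next 4 fitted decreases were smaller or turned direction without WT replicate 3. Igkv2-109 was at 52.9, 59.0 and 419 CPM in WT and at 27.0, 41.5, 38.0 and 32.8 CPM in Fpr2KO, with no overlap, a log2 change of -2.34 (SE 0.84) and an edgeR adjusted p of 0.978. Without WT replicate 3 its change was -0.68. Igkv3-5 (-1.96, or -0.53 without that library), Igkv3-4 (-1.86, or 0.88) and Igkv3-10 (-1.40, or -0.08) did not pass either and overlapped between groups. Without Fpr2KO replicates 1 and 2 the change of Igkv3-4 was -3.85.

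The remaining segments called by DESeq2 kept their direction with any 1 library left out, at -1.08 to -0.76 for Igkv8-28 and -1.57 to -1.09 for Igkv6-13. Igkv8-28 was at 68.5, 85.1 and 54.5 CPM in WT and at 28.8, 38.8, 31.7 and 45.9 CPM in Fpr2KO, a log2 change of -0.93 (SE 0.19). Igkv6-13 was at 29.6, 33.4 and 25.6 CPM in WT and at 7.48, 14.5, 7.88 and 18.7 CPM in Fpr2KO, a log2 change of -1.28 (SE 0.34). Both had every Fpr2KO library below every WT library. The adjusted p was 0.00189 for Igkv8-28 and 0.00633 for Igkv6-13 by DESeq2, and 0.479 and 0.753 by edgeR. Both were named because DESeq2 called them.

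The largest fitted increase among segments with a mean usage of at least 0.2% was that of Igkv8-21. It was at 16.2, 23.1 and 18.8 CPM in WT and at 144, 71.4, 45.3 and 17.6 CPM in Fpr2KO. Of the Fpr2KO libraries 3 lay above every WT library and replicate 4 lay within the WT range. The log2 change was 1.85 (SE 0.75) and did not pass edgeR's test, with an unadjusted p of 0.0527. Without Fpr2KO replicates 1 and 2, the libraries with the highest acinar marker sums, the change was 0.70. Igkv12-89 (1.08), Igkv10-94 (0.67), Igkv5-48 (0.53) and Igkv1-133 (0.50) followed, with overlap and no call. The change of Igkv12-89 was 0.25 without Fpr2KO replicate 3 and 1.77 without Fpr2KO replicates 1 and 2. The change of Igkv5-48 turned to -0.08 without Fpr2KO replicate 2, that of Igkv1-133 to -0.55 without Fpr2KO replicate 3 (1.12 without replicates 1 and 2), and that of Igkv10-94 fell to 0.05 without Fpr2KO replicates 1 and 2.

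Usage itself separated the groups for few segments. Of the 100 tested segments, 1 had higher usage in every Fpr2KO library than in every WT library and 2 had lower usage. Scaled in the same way, 2.43% of all genes were higher and 0.0746% lower. The segment with higher usage was Igkv2-116, a pseudogene with 10, 9 and 16 counts in WT and 11, 261, 55 and 23 in Fpr2KO, and those with lower usage were Igkv4-58 and Igkv2-109. Of the 12 segments not tested, the pseudogenes Igkv14-126-1 (29 counts in all) and Igkv3-11 (34 counts in all) also did not overlap. With segment sums as library sizes, edgeR called Igkv8-21 (log2 change 2.39, adjusted p 0.0052), Igkv2-116 (2.85, 0.0052) and Igkv4-58 (-2.21, 0.0068), where 0.0746% of genes were called. Igkv2-116 is 95.9% identical to Igkv2-109, and Igkv3-11 is 98.8% identical to Igkv3-6. Igkv2-116 and Igkv3-11 were named after their values were seen.

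Position and orientation in the kappa locus did not separate the genotypes. The 109 kappa segments span 67555497 to 70704177 on chromosome 6 (GRCm38), upstream of Igkj1, with 44 on the strand of Igkc and 65 on the other. Segments on the strand of Igkc held 47.9%, 46.0% and 60.0% of kappa counts in WT and 39.9%, 50.7%, 58.3% and 41.6% in Fpr2KO. The 47 segments in the distal part of the span, beyond its midpoint, held 51.2%, 46.5% and 30.0% in WT and 47.8%, 33.4%, 63.6% and 46.4% in Fpr2KO. The distal share was lowest in WT replicate 3, where Igkv3-4, near the joining segments, was highest, and highest in Fpr2KO replicate 3, where Igkv1-117, far from them, was highest. Both segments are on the strand of Igkc, whose share was highest in these libraries and lowest in Fpr2KO replicate 1. At the ends of the locus lie Igkv2-137, farthest from the joining segments, and Igkv3-1, nearest to them.

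**Figure D4:**
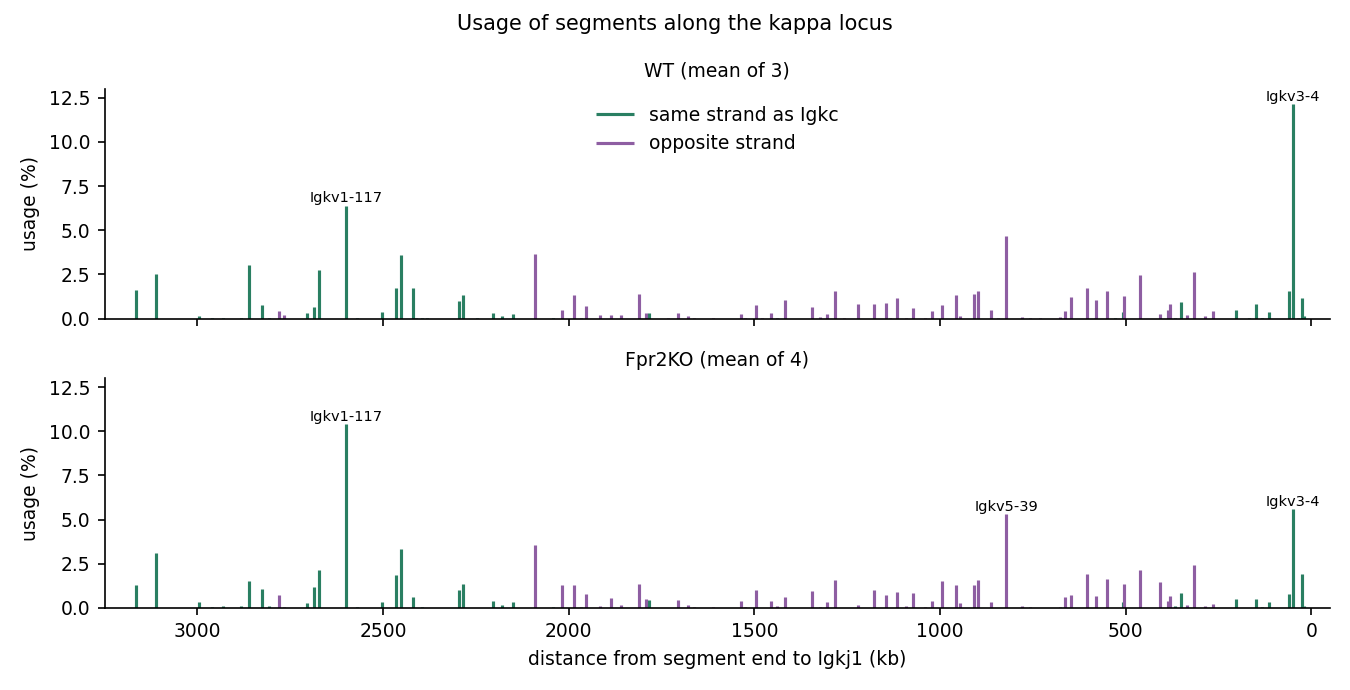
Mean usage of the 109 kappa segments (percent of segment counts) is drawn against the distance of each segment from Igkj1 in kb, WT above and Fpr2KO below, in green for the strand of Igkc and purple for the opposite strand. Used segments lie along the whole locus in both groups, and the tallest bars are Igkv3-4 in WT and Igkv1-117 in Fpr2KO, each of them raised by single libraries.

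Families of related segments overlapped between the groups. The Igkv4 family, with 30 members, held 12.6 ± 0.728% in WT (SD, n = 3) and 12.7 ± 3.12% in Fpr2KO (SD, n = 4). The Igkv1 family, with 9 members, held 16.9%, 14.4% and 8.72% in WT and 14.0%, 10.3%, 34.4% and 12.6% in Fpr2KO. The Igkv1 family was highest in the library dominated by Igkv1-117, and the values overlapped between groups for every family.

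The lambda segments made up a minority of segment counts, with 8.77%, 10.6% and 4.87% in WT and 10.8%, 8.06%, 12.1% and 10.1% in Fpr2KO, which overlapped. WT replicate 3 was the lowest, and without Igkv3-4 and Igkv1-117 in the sum it was still the lowest, at 7.27%, while Fpr2KO replicate 3 was the highest, at 16.9%. Iglv1 held 5.84%, 7.57% and 3.47% in WT and 5.68%, 6.11%, 9.84% and 6.65% in Fpr2KO. Iglv2, 97.0% identical to Iglv1 over the variable exon, held 2.38%, 2.19% and 0.965% in WT and 4.13%, 1.46%, 1.76% and 2.72% in Fpr2KO. In usage the lambda segments did not move as one: Fpr2KO replicate 3 was highest for Iglv1, and Fpr2KO replicate 1 was highest for Iglv2 and Iglv3. On the CPM scale, Iglv3 was instead highest in WT replicate 3, at 57.3 CPM, against 35.9 CPM in Fpr2KO replicate 1. Iglv1 and Iglv2 kept their highest libraries, at 606 and 158 CPM. The fitted log2 changes were -0.01 for Iglv1, -0.01 for Iglv2 and -0.33 for Iglv3.

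Constant region genes gave a separate reading of the same chains. Igkc, the single kappa constant gene, was at 5910, 5811 and 14938 CPM in WT and at 3848, 7955, 5766 and 5050 CPM in Fpr2KO. WT replicate 3 was highest, Fpr2KO replicate 2 second and Fpr2KO replicate 1 lowest, as for the summed segments. Kappa segment counts per Igkc count were 0.858, 0.901 and 0.841 in WT and 0.886, 0.882, 0.939 and 0.889 in Fpr2KO. The ratio thus stayed within 0.841 to 0.939 while Igkc itself ranged from 3848 to 14938 CPM. The log2 change of Igkc was -0.65 (SE 0.44) and did not pass edgeR's test, and it was -0.05 without WT replicate 3.

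Lambda constant genes held 10.7%, 12.1% and 5.99% of light chain constant counts in WT and 15.5%, 10.1%, 14.7% and 14.2% in Fpr2KO. The values overlapped, since Fpr2KO replicate 2 lay below WT replicates 1 and 2. The means were 9.59 ± 3.20% (SD, n = 3) and 13.6 ± 2.43% (SD, n = 4), a difference of 4.03 percentage points. The exact two-sided permutation p was 0.171. That p doubles the smaller one-sided p, so with 35 splits no outcome could reach a p under 0.05. The test thus decides nothing at that threshold. A share depends on the kappa counts as well. The fitted log2 changes were 0.20 (SE 0.25) for Iglc1, -0.07 (SE 0.13) for Iglc2, 0.13 (SE 0.13) for Iglc3 and 0.47 (SE 0.48) for Iglc4. WT replicate 3, lowest in share, was the highest library for Iglc2 (492 CPM), Iglc3 (146 CPM) and Iglc4 (1.29 CPM). Iglc1 was highest in Fpr2KO replicate 3, at 478 CPM. Iglv1, which is joined mostly to Iglc1 and Iglc3, had 1.28, 1.35 and 1.47 counts per Iglc1 count in WT and 0.916, 1.23, 1.27 and 1.20 in Fpr2KO. That ratio did not overlap between the groups, but it was noticed afterwards and has no test. The ratio also leaves out Iglc3, which had 1487, 1673 and 2371 counts in WT and 2139, 2149, 2229 and 2777 in Fpr2KO. Counts of Iglv1 per summed Iglc1 and Iglc3 count are not given, so the separation is not read as a result about Iglv1. Iglv2 had 0.376, 0.354 and 0.259 counts per Iglc2 count in WT and 0.460, 0.282, 0.285 and 0.327 in Fpr2KO, which overlapped.

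**Figure D5:**
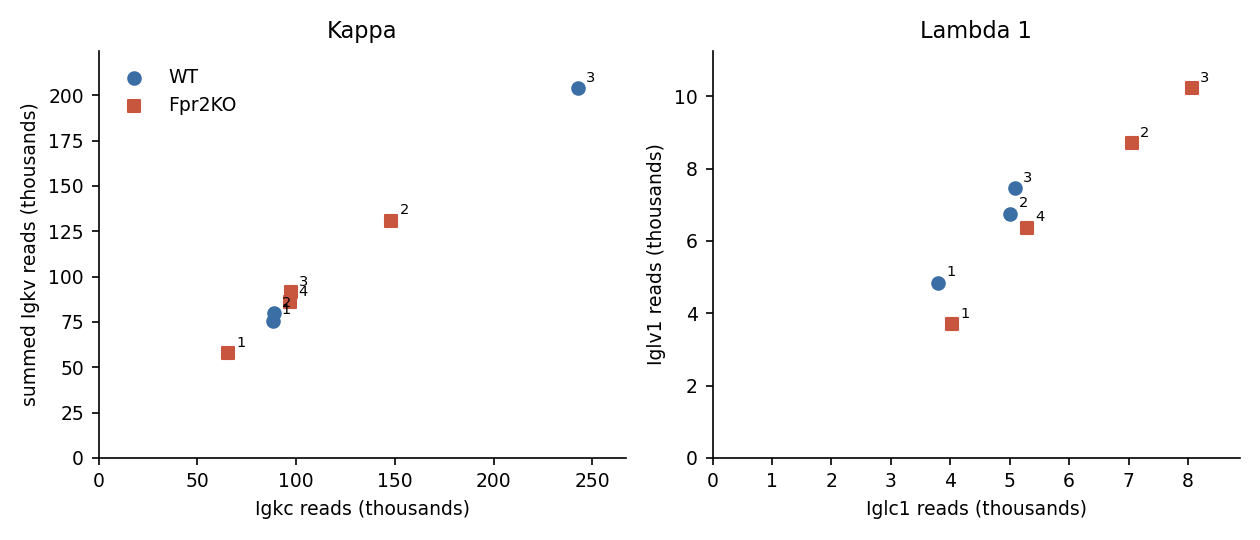
Each point is a library, numbered by replicate, with summed kappa segment reads against Igkc reads (left) and Iglv1 reads against Iglc1 reads (right), each axis in units of 1000 reads, WT as circles and Fpr2KO as squares. The kappa points lie near one line, with ratios of 0.841 to 0.939, and the lambda ratios run from 0.916 to 1.47.

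Genes that make or regulate the rearranged light chain were not called. The recombinase genes Rag1 and Rag2 were at most at 0.655 and 0.177 CPM and were not tested, and 0 of the 9 tested genes of the recombination list passed by edgeR or DESeq2, with 0 at an unadjusted p under 0.05. The same counts were 0 of 6 for constant and surrogate light chain genes. Of 14 factors on light chain promoters and enhancers, 0 passed by either tool and 1 had an unadjusted p under 0.05, Pou2af1, the B cell coactivator that binds octamer factors. Pou2af1 was at 376, 334 and 437 CPM in WT and at 271, 317, 286 and 302 CPM in Fpr2KO. Every Fpr2KO library lay below every WT library, and the log2 change was -0.38 (SE 0.10), with an edgeR adjusted p of 0.613. Of the 13 plasma cell genes, 0 passed. All 13 had a fitted change below 0, as 51.4% of all genes did, with a median of -0.33. Each of the 13 was highest in WT replicate 3. Jchain was at -0.31, or 0.23 without that library.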

How the data were processed

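The authors deposited raw read counts per Ensembl gene, 1 column per library, with no unmapped column. The labels' protocols name a Qiagen RNeasy kit for extraction and NEBNext Ultra II for the libraries. HTSeq 0.10.0, FastQC 0.10.1 and the GRCm38 build are named per the submitters' processing notes. The aligner, the strand setting and the treatment of reads that fit several genes are not given in the sources used here.

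Symbols and positions came from GENCODE M21, which matched 52081 gene IDs, left 3333 unmatched and covered 99.8% of counts. Usage is a segment's share of the library's summed segment counts. The deposited counts were tested with edgeR 4.0.16 (quasi-likelihood F test, TMM scaling, filterByExpr, robust estimation) in R 4.3.3 over all 16089 genes that passed the filter, with Benjamini-Hochberg adjusted p-values called under 0.05. Fold changes are Fpr2KO minus WT on the log2 scale, and each SE is the change divided by the square root of F. DESeq2 1.42.0, other scalings and filters, a replicate block and each library left out were alternatives. Leaving out Fpr2KO replicates 1 and 2 together, and leaving Igkv3-4 and Igkv1-117 out of the sums, were chosen after seeing the data. The lambda share of constant counts was compared by exact permutation. Simulated counts with known changes were used to test the edgeR script.

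The members, gene lists and tests were chosen with earlier results of these data known. Segments were named by rule: the 12 most used kappa segments, all lambda segments, any called by edgeR, the 5 largest fitted changes in each direction and the 8 largest ratios of highest to median usage (both among segments with a mean usage of at least 0.2%), those beside the threshold of 20 counts and the ends of the kappa locus. The context lists covered constant and surrogate light chain, recombination, promoter and enhancer factor, B cell, plasma cell, T cell, pancreatic acinar and erythroid genes, and none of their genes was called by edgeR. T cell markers (5 genes) summed to 344 to 453 CPM in WT and 315 to 481 CPM in Fpr2KO. A further list is not reported here. Segment promoters and recombination signals were not analysed here.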

Additional observations from a re-analysis of the deposited data

Results flagged for a closer look

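In 39 values tested among the 4 Fpr2KO libraries, 10 had 1 library set apart from the other 3 by more than the 95% critical value of Dixon's ratio, the gap to the nearest library over the range of the group. Chance flags about 1 in 20 groups, which would be 1.95 here, and the segments tested had been named partly for their spread, so the count is no test. Fpr2KO replicate 1 stood apart in the usage of Igkv6-15 at 4.71%, Igkv8-21 at 3.77%, Igkv10-94 at 3.10% and the pseudogene Igkv14-126-1 at 0.0108% (7 counts). Fpr2KO replicate 2 stood apart in the usage of Igkv3-4 at 17.2%, Igkv3-10 at 0.773% and Igkv5-45 at 0.779%. Fpr2KO replicate 3 stood apart in the usage of Igkv1-117 at 27.6% and Igkv1-133 at 0.810%, and in kappa segment counts per Igkc count at 0.939. Each of these was the highest library of its group. Igkv6-15 was as high in WT replicate 2, at 4.73%, and Igkv3-4 and Igkv3-10 were higher still in WT replicate 3, at 29.1% and 1.33%. Groups of 3, as the WT libraries, were not tested in this way.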

How the results depend on the processing

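Over the main comparisons, 98 values under an alternative setting moved by less than the limits set for them (1 SD, 1.5 times for a count, or the side of the threshold for a test), and 19 moved by more. For the lambda share of constant counts the side of the threshold was fixed in advance, since its permutation p could not fall under 0.05. Staying within 1 SD did not mean keeping direction. The difference in effective number of segments, 2.93 as reported, was -3.93 without WT replicate 3, -1.41 and -0.74 without Fpr2KO replicates 1 and 4, -0.25 without Igkv3-4 and Igkv1-117 and 0.21 without Fpr2KO replicates 1 and 2. That in the share of the most used segment, -1.15 points, was 5.66, 1.71 and 1.39 without WT replicate 3, Fpr2KO replicate 1 and Fpr2KO replicate 4. The count of segments whose usage did not overlap, 5 as reported, was 3 with at least 100 counts, 2 with functional genes only, 1 with nearest relatives under 95% identical, 3 with libraries thinned to the smallest segment total, 18 without Fpr2KO replicates 1 and 2, and 7 to 14 with 1 library left out, the most without WT replicate 2. The 5 were counted over all 112 segments, including those not tested by edgeR. Fewer libraries, and fewer segments, change that count by construction. No share over all genes was computed for these alternatives, so their counts are not read as a result about the segments. edgeR calls over all genes, 6 as reported, were 12 with segment sums as library sizes, 21 without a low count filter, 58 by DESeq2 and 5 to 15 with 1 library left out (15 without WT replicate 3, 10 without WT replicate 1). Calls among the segments, 0 as reported, were 3 with segment sums as library sizes, 3 by DESeq2 and 0 to 1 with 1 library left out. Deviations of same-numbered libraries from their group means had correlations of 0.078, -0.434 and -0.073. Those of differently numbered libraries ran from -0.440 to 0.436. Such correlations cannot show whether the numbers mark pairs, and the labels do not say so. The fit with a replicate block called 2 genes and 0 segments. The cause of these shifts was not tested.

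With 1 library left out, the log2 ratio of the summed segment level ran from -0.75 to -0.01, the difference in lambda share of segment counts from 0.601 to 3.44 percentage points, in effective number of segments from -3.93 to 8.41, in the share of the most used segment from -5.59 to 5.66 points and in lambda share of constant counts from 2.23 to 5.29 points. Among single genes 242 values stayed, 6 passed the threshold under an alternative and 7 turned direction. Those that turned were Igkv3-4 (0.88) and Jchain (0.23) without WT replicate 3, Jchain (0.23) with segment sums as library sizes, Igkv5-48 without Fpr2KO replicate 2 (-0.08) and without replicates 1 and 2 (-0.091), and Igkv1-133 (-0.55) and Iglc1 (-0.0060) without Fpr2KO replicate 3. With 1 library left out the log2 change ran from -4.10 to 0.88 for Igkv3-4, 0.25 to 1.39 for Igkv12-89, -0.08 to 1.01 for Igkv5-48, -0.55 to 1.14 for Igkv1-133, -0.0060 to 0.35 for Iglc1 and -0.52 to 0.23 for Jchain. The cause was not tested. Depth limits segments with few counts: 3 counts correspond to 0.156 to 0.201 CPM.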
